A study of Mus musculus with 4 samples.

Results

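Open chromatin around 5 genes that mark the glial lineages of the brain was examined in the dentate gyrus, the part of the hippocampus that holds the granule neurons. Olig2, Sox10 and Mbp stood for the oligodendrocyte lineage and Gfap and Aqp4 for astrocytes. Each gene was taken with about 50 kb on each side, in the mouse build mm9, as Olig2 (chr16:91175000-91279000), Sox10 (chr15:78935000-79045000), Mbp (chr18:82594000-82806000), Gfap (chr11:102698000-102813000) and Aqp4 (chr18:15497000-15612000). Summits of FAIRE-seq peaks inside these windows were joined into a region where neighbours lay within 250 bp, which gave 22 of the 82899 regions of the genome. FAIRE-seq sequences the DNA that stays in the aqueous phase when fixed, sonicated chromatin is extracted with phenol and chloroform, which is DNA with few nucleosomes. The mice were of strain C57BL6 and around 9 weeks old, either wild type or knockout for Mbd1, whose protein binds methylated CpG sites, and the question was where regulatory elements are active in one genotype and not in the other. There were 2 libraries titled WT and 2 titled Mbd1 KO; the sources used here state neither how the knockout was made nor whether each library is a separate animal, so the spread inside a group may be technical.

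The labels of 2 libraries conflict: the genotype field calls WT 1 a knockout and Mbd1 KO 2 a wild type. Groups follow the titles below, and each comparison is repeated with the genotype field. The deposited lists held 38142 (WT 1), 46651 (WT 2), 56382 (Mbd1 KO 1) and 49671 (Mbd1 KO 2) summits, without read depth or peak width. Each summit carries the authors' score, read as the −log10 of a p or q value, which was used to rank summits inside a list. An alternative setting also applied a minimum score of 10 to every list. The files hold no expression, so the glial label of the 5 genes could not be checked against marker levels. In whole tissue, fewer cells with an open site and a site less open in each cell cannot be told apart.

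Olig2 and Sox10 are transcription factors of the oligodendrocyte lineage. Olig2, of the basic helix-loop-helix family, acts from the progenitor stage onward and is also made by some neural progenitors, and Sox10, of the SRY-box family, drives myelin genes together with it. Mbp encodes myelin basic protein, which compacts the myelin sheath, and the same locus has an upstream promoter that makes the golli transcripts, which are also found in neurons. Gfap encodes the intermediate filament of astrocytes and of the radial stem cells of the adult dentate gyrus, and Aqp4 the water channel of astrocyte endfeet. Both glial types share the dentate gyrus with a far larger number of granule neurons.

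The start of Olig2 lay in a stretch of 259.1 kb without a summit in any library. That of Gfap lay in a gap of 44.0 kb between regions called in all 4 libraries, near the median of 44.5 kb. Gaps at least this long made up 90.7% of the length between such regions, so this is not a trait of Gfap. The Gfap gap also held regions called in 1 or 2 libraries. The 250 bases before the start of each gene are shown to set these promoters side by side. Mbd1 protein binds methylated CpG sites, and the promoters differ in how many CpG sites they hold. They are from RefSeq (GRCm38.p6), 5′ to 3′ on the strand of the gene, + for Olig2 and − for Gfap, with every CG (the same letters on both strands) in capitals. Of the 5 genes, 2 were matched in the promoter table; Sox10, Mbp and Aqp4 were not.
Olig2: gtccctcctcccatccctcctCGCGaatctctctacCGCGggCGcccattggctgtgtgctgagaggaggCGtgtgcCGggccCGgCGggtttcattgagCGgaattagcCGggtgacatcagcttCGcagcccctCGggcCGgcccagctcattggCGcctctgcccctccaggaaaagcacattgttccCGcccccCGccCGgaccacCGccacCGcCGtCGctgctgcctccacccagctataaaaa
Gfap: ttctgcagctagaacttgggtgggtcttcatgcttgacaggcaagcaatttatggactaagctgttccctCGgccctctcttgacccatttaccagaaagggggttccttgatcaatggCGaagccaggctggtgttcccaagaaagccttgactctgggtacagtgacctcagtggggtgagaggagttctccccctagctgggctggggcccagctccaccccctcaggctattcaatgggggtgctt
The Olig2 bases held 22 CG and those of Gfap 2. The median over the 32851 promoters of that table was 6 CG in 250 bases. Of them, 14.8% held at least 22, 18.8% held fewer than 2, and 92.1% held at least 1. CpG methylation was not measured in these libraries.

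The 5 windows differed widely in how many summits they held. Mbp had 8, 11, 8 and 8 summits in WT 1, WT 2, Mbd1 KO 1 and Mbd1 KO 2, Gfap had 5, 5, 5 and 4, and Sox10 had 1 in each library. Aqp4 had 0, 3, 0 and 1, and Olig2 had 0 in every library. Joined, these made 11 regions at Mbp, 6 at Gfap, 4 at Aqp4, 1 at Sox10 and 0 at Olig2. All 4 libraries called 11 of the 22 regions (50%), beside 32.1% of all regions of the genome. Of the others, 2 were called in 3 libraries, 3 in 2 and 6 in 1. Over the 82899 regions of the genome these counts were 8313, 11425 and 36569. The 11 regions of all 4 libraries were 6 at Mbp, 4 at Gfap and 1 at Sox10. Places are given below from gene edges taken as the window less 50 kb on each side. These edges are approximate by up to several kb: they lie 15 kb apart for Gfap and for Aqp4, against gene lengths of 9865 and 21589 bp in RefSeq (GRCm38.p6).

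**Figure D1:**
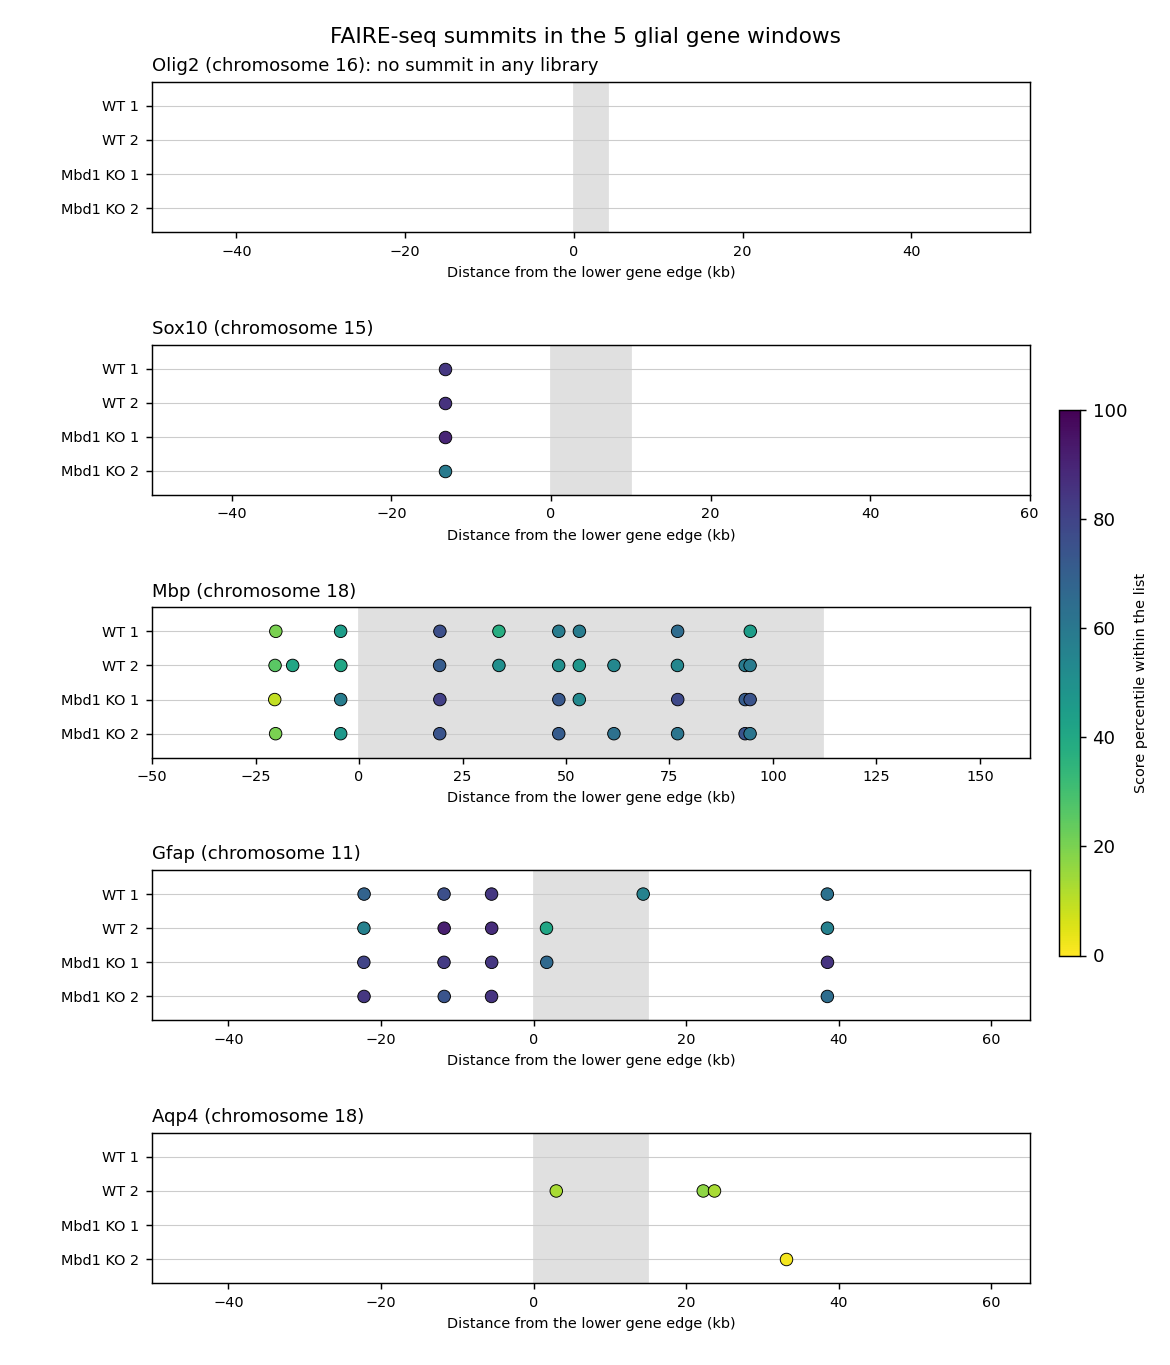
Summits in each window (x axis, distance from the lower gene edge in kb; grey, the span between the approximate gene edges), 1 row per library, coloured by score percentile within that library's list. Mbp and Gfap hold 6 and 4 columns of points that run through all 4 libraries, Sox10 holds 1, and Olig2 is empty.

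Olig2 carried no summit within its window of 104 kb in any library. The nearest summit on the lower side was a single one of WT 2 at chr16:91093399, 131.6 kb from the gene edge, and the nearest on the upper side was a region of all 4 libraries at chr16:91352495-91352508, 123.5 kb away. The gap between them was 259.1 kb, against a median of 16.6 kb between neighbouring regions, and gaps at least this long made up 10.6% of the length between regions. Of the consecutive stretches of 104 kb along the numbered chromosomes and X, 14.3% held no region, so an empty window of this size was not rare among them. These stretches were taken with or without genes, and the share among those that hold genes was not computed. In the RefSeq gene order, Olig1, the close relative of Olig2 and likewise an oligodendrocyte lineage factor, is the next protein-coding gene on the upper side, within 50 kb.

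Sox10 had 1 region, called in all 4 libraries at chr15:78971712-78971729, 13.3 kb below the lower gene edge. The 4 summits lay within 18 bp of each other. Its score percentile within the list was 84.1 in WT 1, 85.7 in WT 2, 89.7 in Mbd1 KO 1 and 58.9 in Mbd1 KO 2, with scores of 27.7, 25.4, 31.9 and 13.1. It was thus in the upper part of the lists of 3 libraries and closer to the middle in Mbd1 KO 2. Over the genome, regions called in all 4 libraries had a median list percentile of 70.5, and the value in Mbd1 KO 2 was below it. The titled groups overlapped, since the libraries titled Mbd1 KO held both the highest and the lowest value. On this side the next gene in the RefSeq order is Polr2f, which encodes a subunit shared by the nuclear RNA polymerases, and the region was not assigned to either gene. No summit lay between the edges of Sox10, and the nearest one on the upper side was 64.6 kb away. At least 1 region of all 4 libraries was present in 56.1% of stretches of this length.

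Mbp held the most regions, and 8 of its 11 lay between the gene edges, including 4 of the 6 called in all 4 libraries. Of the stretches of 212 kb, 8.28% held at least 6 regions of all 4 libraries, and the median was 2. The region with the highest median percentile was chr18:82663458-82663532, 19.5 kb inside the lower edge, the 5′ end of the whole locus. The locus includes the upstream golli promoter, and where the myelin transcripts start within it was not determined here. This region stood at percentile 76.0 in WT 1, 71.1 in WT 2, 80.9 in Mbd1 KO 1 and 74.0 in Mbd1 KO 2. It was above the middle of every list, and the values overlapped between the titled groups.

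The other regions of all 4 libraries inside Mbp were of middling strength. That at chr18:82692220-82692269 had percentiles of 58.4 and 50.6 in WT 1 and WT 2 and of 72.9 and 71.3 in Mbd1 KO 1 and Mbd1 KO 2, so both libraries titled Mbd1 KO stood higher. At chr18:82720919-82720992, 77.0 kb inside, they were 64.9 and 53.5 against 77.9 and 61.0. At chr18:82738471-82738516, 94.5 kb inside, they were 44.6 and 58.8 against 74.3 and 61.0. The titled groups overlapped at the former and not at the latter, but percentiles of lists of different length show no change by themselves.

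Below the lower edge of Mbp, 2 weaker regions were also called in all 4 libraries. The nearer, chr18:82639546-82639598, 4.4 kb outside, had percentiles of 44.6, 40.7, 58.1 and 46.5 in WT 1, WT 2, Mbd1 KO 1 and Mbd1 KO 2. The farther, chr18:82623627-82623892, 20.2 kb outside, was the weakest of the 11, with 20.0, 25.5, 9.4 and 20.0. Its summits were spread over 266 bp, against a median span of 46 bp for the 11 regions and 41 bp for all regions of 4 libraries.

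Mbp also held the regions of the 5 windows that recurred in 1 pair of libraries by title or field. The region at chr18:82677794-82677796 was called in both libraries titled WT, at percentiles 37.8 (WT 1) and 50.6 (WT 2), and in neither titled Mbd1 KO, whose nearest summit lay 14.3 kb away. It was the only such region in the windows (1 of 22), beside 0.975% of all regions of the genome, and 0 of 22 had the opposite pattern, beside 4.07%. By the genotype field, 1 of 22 was called in both field WT libraries alone (2.63% of all regions), at chr18:82705573-82705585 in WT 2 and Mbd1 KO 2, with percentiles of 53.5 and 62.9, and 0 of 22 in the field Mbd1 KO libraries alone (1.67%). A single region is too few to set against these shares. The first region was below a score of 10 in both libraries, so it is not present where that minimum is applied. The 2 regions of 3 libraries were also at Mbp: chr18:82697209-82697237 had no summit in Mbd1 KO 2 and chr18:82737269-82737298 none in WT 1.

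Gfap had 4 regions of all 4 libraries, and all 4 lay outside the approximate gene edges. At least 4 such regions were found in 7.41% of stretches of 115 kb, where the median was 1. The strongest by median was chr11:102742485-102742505, 5.5 kb below the lower edge, which is the 3′ side of the gene. Its percentiles of 84.1 in WT 1, 87.2 in WT 2, 84.3 in Mbd1 KO 1 and 84.9 in Mbd1 KO 2 were the closest together of the 11. At chr11:102736255-102736285, 11.7 kb below, they were 76.0, 91.8, 82.7 and 74.0, and the value of WT 2 was the highest of any region in the 5 windows, rank 3783 of its list. Both were thus in the upper part of every list, and by these list percentiles the titled groups overlapped at both. Ranked among the regions called in all 4 libraries, as given below, the titled groups did not overlap at either.

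The other 2 regions of all 4 libraries at Gfap varied more between libraries. At chr11:102725749-102725782, 22.2 kb below, the percentiles were 68.6 in WT 1, 56.3 in WT 2, 80.0 in Mbd1 KO 1 and 84.1 in Mbd1 KO 2. At chr11:102786492-102786512, 23.5 kb above the upper edge, on the 5′ side, they were 62.9, 56.3, 85.1 and 64.8. Mbd1 KO 1 stood apart there, and WT 2 was the lowest library at both. The neighbours on the lower side in the RefSeq order are Fam187a, Ccdc103, Eftud2, a factor of the spliceosome, and Higd1b, and those on the upper side Kif18b, a mitotic kinesin, and C1ql1. The regions were not assigned to any of these genes.

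Between the edges of Gfap, no region was called in more than 2 libraries. A summit at chr11:102762360, 0.6 kb inside the upper edge, was listed in WT 1 only, at percentile 56.0. Whether it lies at the start of Gfap cannot be said from edges this coarse. The region at chr11:102749687-102749720, near the 3′ end, was called in WT 2 (percentile 40.7) and Mbd1 KO 1 (66.4), which are the 2 libraries whose labels agree and belong to different groups. From 5.5 kb below to 23.5 kb above the gene, no region of all 4 libraries was found, a gap of 44.0 kb that is close to the median of 44.5 kb between such regions.

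Each of the 4 regions at Aqp4 was called in 1 library only, as were 36569 of the 82899 regions of the genome. WT 2 had summits at chr18:15549968, between the gene edges, and at chr18:15569230 and chr18:15570704, 7.2 and 8.7 kb above the upper edge, at percentiles 13.1, 17.2 and 13.1. Whether these summits above the edge lie outside Aqp4 cannot be said from edges this coarse. Mbd1 KO 2 had 1 summit at chr18:15580106, at percentile 1.8. All were weak, and WT 1 and Mbd1 KO 1 had none. The nearest regions of all 4 libraries were 390.9 kb below and 118.9 kb above the gene, and gaps of this size (524.8 kb) or more made up 22.8% of the length between such regions. Of the stretches of 115 kb, 42.8% held no region of all 4 libraries.

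For the comparison of the genotypes, the 11 regions of all 4 libraries were ranked in each library among the same 26592 regions called in all 4, which takes out the different lengths of the lists. In this set the median percentile of the 11 was 43.5, with region medians from 3.6 to 76.2; 5 stood above 50 and 6 below. The median was 36.8 for the 6 at Mbp and 60.8 for the 4 at Gfap. The distance between the highest and the lowest library had a median of 25.0 points over the 11, beside 21.5 over all regions of the set.

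By title, the 11 regions did not move in 1 direction. Both libraries titled Mbd1 KO ranked above both titled WT at 2 of 11 regions, beside 16.2% of the whole set, and below both at 3 of 11, beside 16.1%. The 2 were at Gfap, 22.2 kb below the gene, with 58.0 and 70.6 in Mbd1 KO 1 and Mbd1 KO 2 against 55.7 and 29.1 in WT 1 and WT 2, and at Mbp, 48.2 kb inside, with 44.2 and 47.7 against 42.7 and 22.7. In both cases WT 1 lay close below Mbd1 KO 1, and WT 2 was the library that stood apart. The 3 were the regions 11.7 and 5.5 kb below Gfap and the weakest region of Mbp: 63.5 and 52.2 against 66.0 and 85.6, then 66.9 and 72.0 against 77.3 and 77.8, then 0.3 and 2.5 against 7.6 and 4.8. The median difference, Mbd1 KO minus WT, was −1.8 points over the 11 and 0.0 over the whole set.

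By the genotype field, the order was more often 1 way. The field Mbd1 KO libraries (titled WT 1 and Mbd1 KO 1) ranked above both field WT libraries at 5 of 11 regions, beside 18.2% of the whole set, and below both at 0 of 11, beside 17.8%. The 5 were the Sox10 region, 3 of Mbp (4.4 kb below, and 19.5 and 77.0 kb inside) and the Gfap region 23.5 kb above. At Sox10 the values were 77.3 in WT 1 and 78.2 in Mbd1 KO 1 against 75.1 in WT 2 and 29.2 in Mbd1 KO 2, so the difference there came from Mbd1 KO 2. At the Mbp region 77.0 kb inside they were 50.9 and 53.9 against 25.9 and 31.9, and both pairs were close within themselves. The median difference was 8.3 points, against 0.0 over the whole set. Single regions were not tested, since 2 libraries against 2 cannot give an exact permutation p below 0.33, and the regions of 1 window share their libraries and are not replicates.

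**Figure D2:**
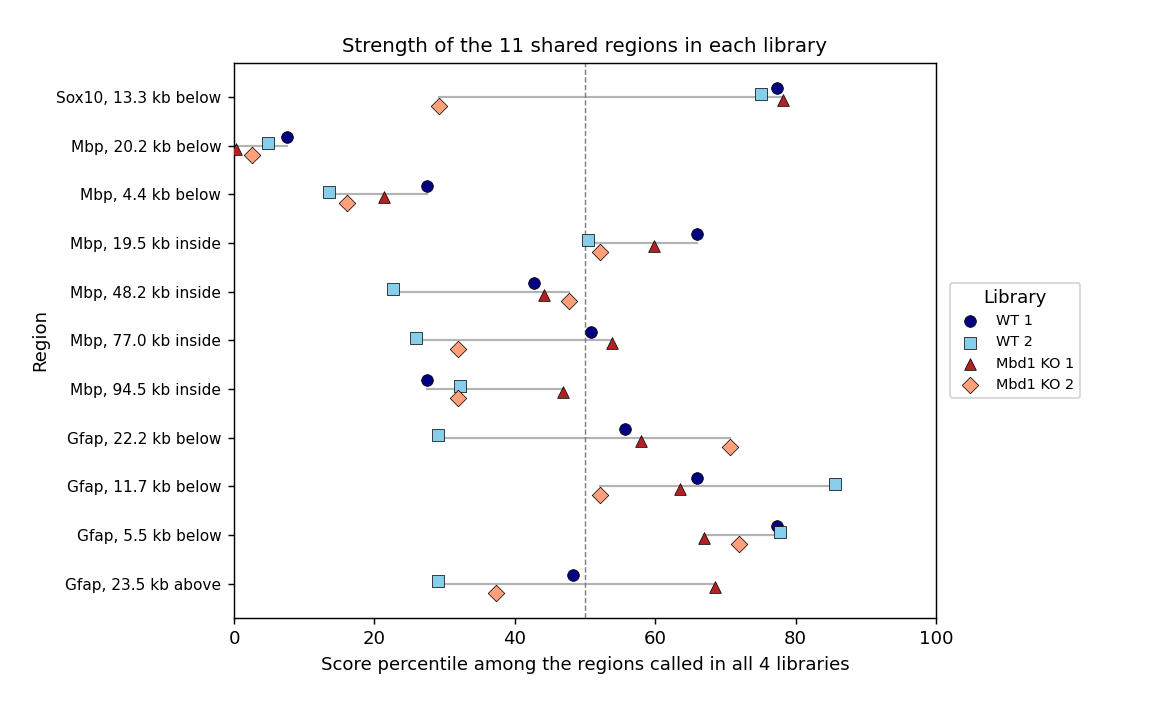
Score percentile of each of the 11 regions (y axis, by gene and distance in kb from the approximate gene edge) among the 26592 regions called in all 4 libraries (x axis); points are libraries, grey lines join the lowest and highest, and the dashed line marks 50. The Sox10 region spans 29.2 to 78.2 because of Mbd1 KO 2. Both titled Mbd1 KO points lie above both titled WT points at 2 of the 11 regions, beside 16.2% of the 26592. They lie below both at 3 of the 11, beside 16.1%, in some cases by a small distance.

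The number of summits in the 5 windows together did not follow the length of the lists. It was 14 in WT 1, 20 in WT 2, 14 in Mbd1 KO 1 and 14 in Mbd1 KO 2, so WT 2 alone was higher. The means were 14.0 ± 0.0 for the titled Mbd1 KO and 17.0 ± 4.24 for the titled WT libraries (SD, n = 2 each). A two-sided exact permutation test gave p = 1, while the whole lists were longer in the titled Mbd1 KO libraries by a ratio of 1.25 (exact permutation p = 0.33). By the genotype field the means of the window summits were the same, and the ratio of the whole lists turned to 0.981 (exact permutation p = 1). Without WT 2 the difference of the window summits was 0. The surplus of WT 2 consisted of 3 summits at Mbp and 3 at Aqp4 over WT 1.

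Per 10000 summits of the list, the windows held 3.67 in WT 1, 4.29 in WT 2, 2.48 in Mbd1 KO 1 and 2.82 in Mbd1 KO 2. The titled groups did not overlap, at 2.65 ± 0.237 for Mbd1 KO against 3.98 ± 0.436 for WT (SD, n = 2 each), which is 0.666 times as many. A two-sided exact permutation test gave p = 0.33, which is as low as 2 libraries against 2 can go. Exact permutation tests were run on 3 quantities (window summits, their share and the whole lists) under both groupings and on the summits of each of the 5 windows by title, where each gave p = 1, and none was adjusted. The difference of −1.33 per 10000 was −0.393 when scores under 10 were left out and −0.476 when grouped by the genotype field (exact permutation p = 0.67 each). It was −0.787 with lists of equal length (exact permutation p = 0.33). At a score of at least 10 the number of window summits differed by 0.5, and the lower share there went with longer Mbd1 KO lists. The part of list length in this share was not tested beyond these settings.

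**Figure D3:**
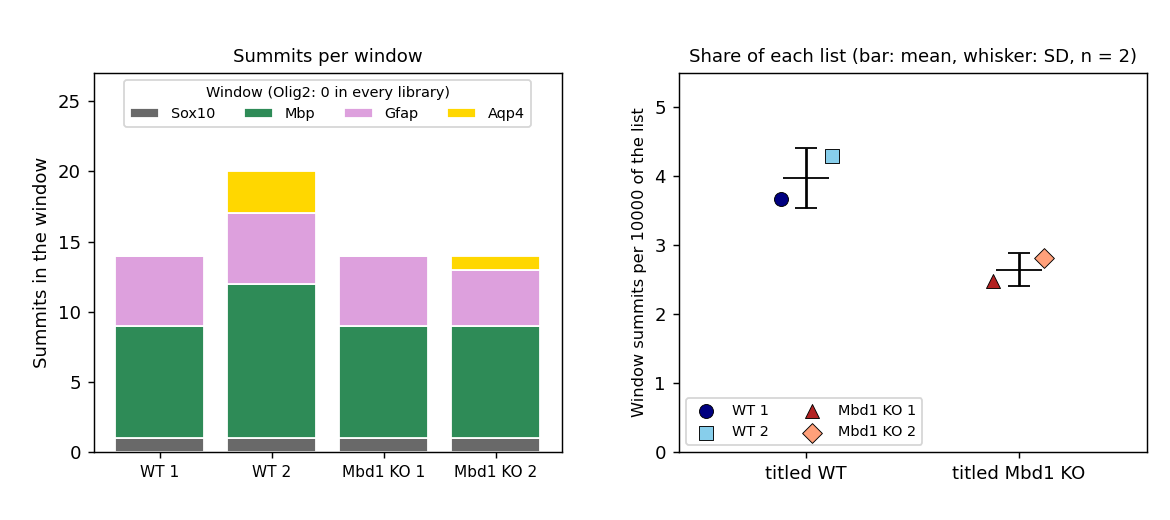
Left, summits in each window, stacked, for each library; right, summits of the 5 windows per 10000 summits of the list, by titled group, with mean and SD (n = 2 each). WT 2 has 20 summits and the others 14, and the titled WT libraries, at 3.67 and 4.29, lie above the titled Mbd1 KO libraries, at 2.48 and 2.82.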

How the data were processed

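FAIRE-seq libraries of mouse dentate gyrus were analysed from 4 deposited lists of peak summits. Each list belongs to 1 library, without pooling. Bowtie, SAMtools, MACS2 and the build mm9 are named, per the submitters' processing notes; their versions and settings, and whether an input was used, are not stated there. The deposited score was read as −log10 of a p or q value, since every value exceeds 1.30, the −log10 of 0.05. Read depth is unknown, so no counting interval was computed.

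Summits were joined within 250 bp, and a region was called in a library with a summit in it. Percentiles are average ranks of the score, and a region takes its highest summit. Groups follow the titles. Group labels were permuted exactly over the 4 libraries (two-sided). Background stretches run from the first summit of each chromosome. Regions named are all those of 4 libraries and of 1 titled pair; others were chosen after their values were seen. The members and lists were chosen with earlier results of these data known. Alternatives were the genotype field, a score of at least 10, equal list lengths (38142), windows of 10 kb each side, joining within 100 or 1000 bp, leaving out each library, a replicate block and, added after the data were seen, only the libraries whose labels agree. Joining was tested on simulated lists. The RefSeq gene table (GRCm38.p6) was used for gene names, lengths and order, not for positions. Python 3.11.15, numpy 2.4.6, pandas 2.3.3, scipy 1.17.1 and matplotlib 3.10.9 were used.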

Additional observations from a re-analysis of the deposited data

How the results depend on the processing

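Grouped by the genotype field, the shared regions at which both Mbd1 KO libraries ranked above both WT libraries rose from 2 to 5, and those at which both ranked below fell from 3 to 0, through the exchange of WT 1 and Mbd1 KO 2. At a score of at least 10 the difference in window summits (Mbd1 KO minus WT) turned from −3 to 0.5, and the regions of the titled WT pair alone fell from 1 to 0; with lists of equal length these were 2. With windows of 10 kb each side, which hold fewer regions, 6 regions of all libraries were left of 11, with 1 ranked above and 1 below. With WT 2 and Mbd1 KO 1 only, whose labels do not conflict, there were 20 regions, of which WT 2 alone called 6 and Mbd1 KO 1 alone 0. Both called 14, of which 10 ranked higher in Mbd1 KO 1 and 4 in WT 2, 1 library a group being easier to satisfy. Shares over all regions were computed only for the main setting and the genotype field, so the counts of the other settings have none beside them. When each library was left out in turn, the summit difference ran from −6 (without WT 1) to 0 (without WT 2). The group that lost a library then held 1 library, which is easier to satisfy than a pair. Regions called in every Mbd1 KO library left and in no WT library ran from 0 to 1. The reverse ran from 1 to 5, the 5 being regions of WT 2 without WT 1. Those ranked above ran from 2 to 7 and those ranked below from 3 to 5. The regions of all libraries left ran from 11 to 12. The share per 10000 kept its direction in every setting, from −0.393 to −1.8, but not always with fewer window summits in Mbd1 KO. The summit difference was 0 without WT 2 (share −1.02) and 0.5 at a score of at least 10 (share −0.393). In these settings the lower share went with longer Mbd1 KO lists. Joining within 100 or 1000 bp moved no count by more than 1.5 times; within 100 bp, the regions ranked below went from 3 to 2. In the replicate block setting, which averages the differences of same-numbered libraries, the summit difference was −3 (0 and −6 in the 2 pairs, exact sign-flip permutation p = 1) and the share −1.33 (−1.19 and −1.47, exact sign-flip permutation p = 0.5, as low as 2 pairs can go). What the numbers stand for is not stated, and deviations of same-numbered libraries correlated at 0.0656 over the 26592 shared regions, so the numbers were not taken as pairs. Where not stated, the cause was not tested. Unknown read depth limits all counts: a site without a summit cannot be told apart from one just below the calling threshold.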
